A study of Mus musculus with 6 samples.

Results

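The genes described here are those of the cytosolic ribosomal proteins, the proteins that build the large and the small subunit of the ribosome outside mitochondria. They were chosen by symbol alone, as genes named Rpl or Rps with a number, Rpsa, and Rplp0, Rplp1 and Rplp2, without the ribosomal S6 kinases and without symbols that hold -ps. The rule gave 86 of the 32285 genes measured. By symbol alone, 52 of these were counted with the large subunit, Rplp0, Rplp1 and Rplp2 of its stalk included, and 33 with the small subunit. Rps19bp1 was counted with neither, as it encodes a binding partner of a ribosomal protein and not a part of the ribosome.

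The testes of 8-week-old wild-type C57BL/6 male mice (C57BL/6N in the study's methods) were dissociated with collagenase and trypsin and profiled by droplet-based single-cell RNA sequencing, in which a unique molecular identifier (UMI) marks each captured RNA molecule. The mice had eaten a high-fat diet (HFD) or the purified low-fat control diet (LFD) for 2 weeks, with 3 libraries for each diet, and no other allele or agent separates the groups. For all 6 libraries the names of the deposited files carry the opposite diet to the sample titles, and the numbers of barcodes that the study lists by sample go with the file names. Diets are given here as the titles label them, so that every difference between diets below would change sign under the file names. There were 3 mice for each diet by the study's methods, as many as libraries, while the labels tie no library to an animal, so p-values measure only the spread between these libraries.

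The 6 libraries held 48939 barcodes and 429495465 UMIs, from 39196921 to 95845514 UMIs per library, and any pair of libraries shared 12 to 28 barcodes, at most 0.32% of the smaller. Cell classes were set from marker genes that include no ribosomal protein gene. They took 11535 barcodes, 23.6% of all, which hold 72.1% of the UMIs. There were 720 spermatogonia, 955 spermatocytes of early meiotic prophase, 1564 pachytene spermatocytes, 1281 late spermatocytes, 444 early and 2686 later round spermatids, 3120 elongating spermatids, 366 Sertoli cells, 238 macrophages and 161 Leydig, peritubular or stromal cells. In each class at least 6 of its own markers were higher than in the other classes, among them all 9 of the elongating spermatids, all 10 of the macrophages and all 10 of the Sertoli cells. The elongating class of 1 library, HFD replicate 2, stands apart and is named beside the results it touches.

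A ribosome needs each of its proteins in about equal number, and the genes are transcribed in nearly every cell. In the male germ line the X chromosome is silenced during meiosis, from the pachytene stage on, so X-linked genes for such proteins cannot be read there in the usual way. Rpl10l and Rpl39l are autosomal copies of the X-linked genes Rpl10 and Rpl39 that are known for their expression in meiotic and later germ cells, and loss of either impairs spermatogenesis in mice. In elongating spermatids the nucleus is packed with protamines and transcription ends.

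Of the 86 genes, 4 lie on the X chromosome (Rpl10, Rpl36a, Rpl39 and Rps4x) and the others on 18 autosomes. In GENCODE annotation of GRCm38, Rpl10 lies at chrX:74270812-74273135 on the plus strand and Rpl39 at chrX:37082520-37085402 on the minus strand. Rpl10l lies at chr12:66283379-66284401 on the minus strand and Rpl39l at chr16:10170226-10174911 on the plus strand. The coding sequences of both pairs are printed because the results turn on telling the copies apart by their reads. They are shown 5′ to 3′ from the start codon, from the transcripts of that annotation, with the bases at which the members of a pair differ in capitals.
Rpl39: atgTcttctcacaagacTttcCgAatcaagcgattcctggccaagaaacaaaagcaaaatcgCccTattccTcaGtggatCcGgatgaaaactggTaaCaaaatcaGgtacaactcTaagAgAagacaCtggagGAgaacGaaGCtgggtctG
Rpl39l: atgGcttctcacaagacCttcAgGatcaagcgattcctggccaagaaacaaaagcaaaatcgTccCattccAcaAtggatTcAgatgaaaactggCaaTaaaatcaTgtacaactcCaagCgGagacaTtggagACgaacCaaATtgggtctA
Rpl10, bases 1 to 240: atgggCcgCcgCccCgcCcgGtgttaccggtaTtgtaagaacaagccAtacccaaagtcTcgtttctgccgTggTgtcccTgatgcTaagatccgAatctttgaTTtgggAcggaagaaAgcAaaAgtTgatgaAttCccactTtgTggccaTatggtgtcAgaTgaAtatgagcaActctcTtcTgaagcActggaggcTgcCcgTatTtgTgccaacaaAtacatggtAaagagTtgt
Rpl10l, bases 1 to 240: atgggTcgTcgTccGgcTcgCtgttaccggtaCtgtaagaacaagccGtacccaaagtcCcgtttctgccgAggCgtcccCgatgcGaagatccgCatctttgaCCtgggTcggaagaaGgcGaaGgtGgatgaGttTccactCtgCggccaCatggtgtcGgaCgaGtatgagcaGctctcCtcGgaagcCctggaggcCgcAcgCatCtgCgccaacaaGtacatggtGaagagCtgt
Over the whole coding sequence Rpl39 and Rpl39l differ at 23 of 153 bases, 85.0% identity, and 16 of the differences fall on the last base of a codon. Rpl10 and Rpl10l differ at 98 of 642 bases, 84.7% identity, with 89 on the last base of a codon; 41 of them are in the stretch shown. The reads of this assay come from the 3′ end of a transcript, where the pairs are less alike: over the last 300 bases of each transcript, identity along the alignment is 47.2% for Rpl39 and Rpl39l and 45.9% for Rpl10 and Rpl10l.

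The share of all UMIs that came from the 86 genes was highest in spermatogonia, the stem and dividing cells at the base of the germ line, and lower at later stages. In spermatogonia it was 15.1% ± 1.77 (SD, n = 6 libraries), with 13.3% in the lowest library, a median of 14.8% and 17.2% in the highest. It was 10.2% ± 1.26 in early meiotic prophase, 7.20% ± 0.809 in pachytene spermatocytes and 5.74% ± 0.453 in late spermatocytes, and the ranges of spermatogonia and early prophase do not overlap. Early round spermatids had 5.67% ± 0.513, later round spermatids 4.90% ± 0.390 and elongating spermatids 4.30% ± 1.02.

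Taken within libraries, 4 of the 6 steps between consecutive stages were lower in 6 of 6 libraries, each with a two-sided exact sign-flip p of 0.03125, the smallest that 6 libraries allow, and an adjusted p of 0.0469 over the 6 steps. The share changed by -4.84 percentage points into early meiotic prophase, -3.02 into the pachytene stage, -1.46 into late spermatocytes and -0.773 from early to later round spermatids. Removal of possible doublets left 56.0% of gated barcodes, and 1 of the 444 early round ones, so the step between round spermatids had no value there. The steps into early meiotic prophase and the pachytene stage then measured -5.92 and -4.69 points (sign-flip test, adjusted p = 0.0625 each over fewer steps). The step into late spermatocytes measured 0.0948 points (adjusted p = 0.9375), and as a mean over barcodes -0.882 points (adjusted p = 0.1875). The step from late spermatocytes to early round spermatids measured -0.0624 points (exact p = 0.3125, lower in 5 of 6), and that from later round to elongating spermatids -0.597 points (exact p = 0.21875, lower in 5 of 6), so neighbours at these steps did not differ beyond their spread. The exception at the last step is HFD replicate 2, whose elongating class had 6.34% against 3.57% to 4.18% in the other 5 libraries. Without that library the difference was -0.985 points. With all 6 libraries, but protamines and transition proteins left out of the denominator, it was 0.218 points. CPM below stands for UMIs per 1000000 UMIs of the class in a library, a level on the total-count scale. In that library the 9 elongating markers summed to 97867 CPM against 173722 to 227799 in the others, and the late spermatocyte markers to 950 against 118 to 228; with a stricter gate 241 of its 654 barcodes remained and the share was 4.97%. The part of this makeup in the result was not tested.

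Among the other cells, macrophages had 15.5% ± 3.81 (n = 6), a range that overlaps that of spermatogonia. The Leydig, peritubular and stromal class had 11.9% ± 0.897 and Sertoli cells 5.77% ± 1.40. Without barcodes that also passed the gate of a distant class, macrophages ran from 14.9% to 21.9%, in place of 11.5% to 20.2%. Sertoli cells then ran from 4.32% to 6.13%, in place of 4.24% to 8.00%. RNA of elongating spermatids was found in every class, and it was high in Sertoli cells, where the elongating markers summed to 21038 to 68716 CPM against 6068 to 19579 for the Sertoli markers themselves. The whole testis had 5.91% ± 0.517. Barcodes under 5000 UMIs that passed no gate had 5.80% ± 0.668.

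**Figure D1:**
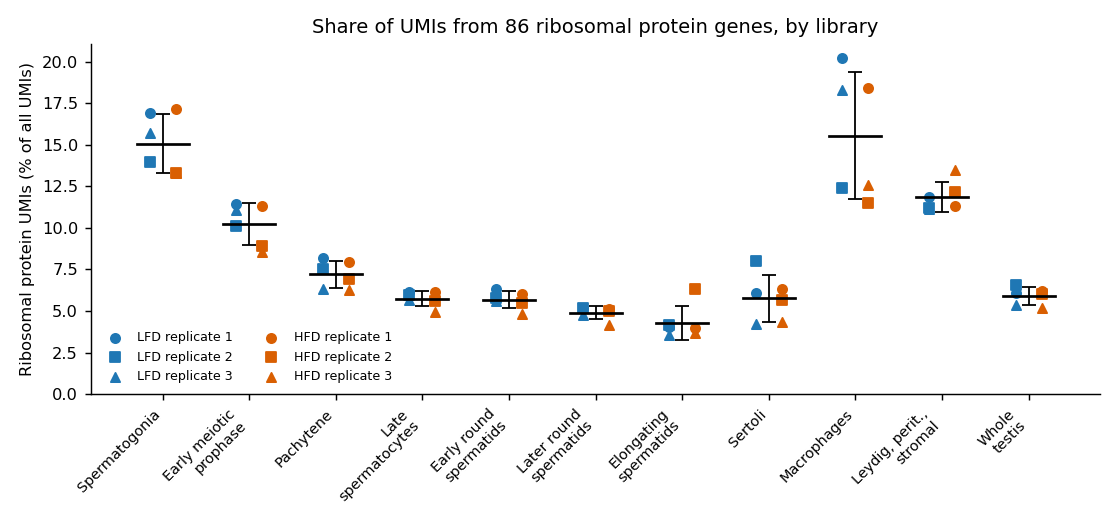
Share of UMIs from the 86 ribosomal protein genes (vertical axis, percent of all UMIs) in each cell class and in the whole testis. Each point is 1 library, blue for LFD and orange for HFD, with the shape giving the replicate number; black lines are the mean and SD of the 6 libraries. Spermatogonia and macrophages lie at 11.5% to 20.2%, round spermatids at 4.16% to 6.33%, and HFD replicate 2 stands above the other libraries in elongating spermatids.

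The subunits did not keep the same share of UMIs. The ratio of large-subunit to small-subunit UMIs was 1.25 ± 0.0262 in spermatogonia and 1.24 ± 0.0546 in early meiotic prophase, then 1.51 ± 0.0462 in pachytene spermatocytes, and it ended at 1.38 ± 0.0470 in elongating spermatids. The lowest pachytene library had 1.44 and the highest early-prophase library 1.30, so these ranges do not overlap. UMIs are counts of RNA ends and need no scaling for gene length, but the ratio is one of captured molecules and not of proteins.

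The X-linked members had the steepest change. Rpl39, a small protein lining the exit tunnel, had 336 CPM in the lowest, 388 in the median and 772 in the highest library of spermatogonia, and 336, 492 and 619 in early meiotic prophase. In pachytene spermatocytes it had 1.51, 1.80 and 9.59 CPM. No library of the earlier classes overlaps any of the pachytene class. Rpl36a went from 583 ± 71.5 CPM (n = 6) in spermatogonia to 224 ± 81.1 and then 2.20 ± 2.44. Rpl10, which sits where the subunits meet and is needed for their joining, went from 324 ± 37.5 to 162 ± 46.1 and 4.99 ± 1.55. Rps4x, of the small subunit, was the lowest of the 4 already in spermatogonia, at 108 ± 39.3, and went to 34.6 ± 13.9 and 0.468 ± 0.356.

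Over the summed UMIs of all 6 libraries, pachytene spermatocytes were 69.1-fold lower than spermatogonia for Rpl10, 153-fold for Rpl39, 289-fold for Rps4x and 336-fold for Rpl36a. The 4 stayed low to the end. In early round spermatids Rps4x had 3 UMIs in 17369061, and in elongating spermatids Rpl10 had 227 UMIs in 60021272. In edgeR's quasi-likelihood test with Benjamini-Hochberg adjustment over 15927 genes, the step from early meiotic prophase to the pachytene stage was a log2 change of -6.85 ± 0.49 (SE) for Rpl39 (adjusted p = 9.484e-16), -6.44 ± 0.47 for Rpl36a (2.331e-15), -5.78 ± 0.45 for Rps4x (1.762e-14) and -4.47 ± 0.24 for Rpl10 (4.478e-19), each lower in 6 of 6 libraries. At the step before, from spermatogonia, Rps4x (-1.62 ± 0.30), Rpl36a (-1.36 ± 0.34) and Rpl10 (-0.97 ± 0.20) had already fallen, whereas Rpl39 measured 0.22 ± 0.35 (adjusted p = 0.6502).

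**Figure D2:**
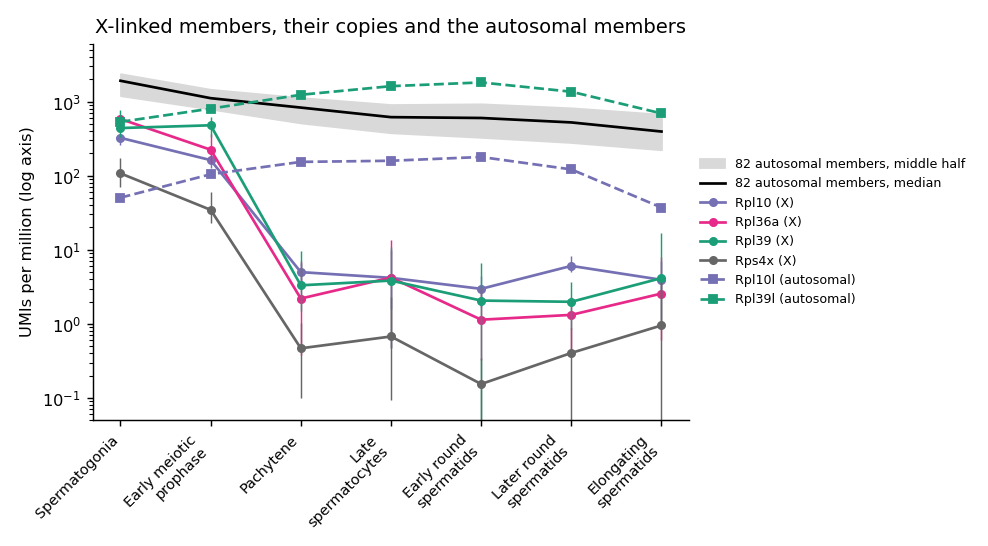
Level of the 4 X-linked members and of the autosomal copies Rpl10l and Rpl39l over the germ cell stages, with the median and the middle of the distribution of the 82 autosomal members in black and grey (vertical axis, CPM, log scale). Points are means of 6 libraries and thin vertical lines run from the lowest to the highest library, cut off at the axis where the lowest is 0. On average the X-linked genes lie between 108 and 583 CPM in spermatogonia and at 6.06 CPM or less from the pachytene stage on, while Rpl39l climbs to 1816 CPM in early round spermatids.

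The autosomal copies ran the other way. Rpl39l had 476, 527 and 605 CPM in the lowest, median and highest library of spermatogonia, 942, 1252 and 1427 in pachytene spermatocytes, and 1655, 1807 and 2056 in early round spermatids, its highest class. Rpl10l had 36.3, 51.0 and 67.4 CPM in spermatogonia, 112, 147 and 198 in pachytene spermatocytes, and 152, 177 and 203 in early round spermatids. For both genes all 6 pachytene libraries lie above all 6 of spermatogonia. On edgeR's scale Rpl10l rose by 1.13 ± 0.16 into early meiotic prophase (adjusted p = 2.619e-07) and by 1.09 ± 0.15 into the pachytene stage (4.844e-08), and Rpl39l by 0.66 ± 0.10 (1.212e-06), 1.17 ± 0.10 (6.009e-13) and again 0.53 ± 0.10 into late spermatocytes (1.733e-05). From later round to elongating spermatids Rpl10l fell by 1.18 on the log2 scale (SE 0.15, adjusted p = 8.176e-09). It had 18.4, 26.4 and 96.7 CPM in the lowest, median and highest library of elongating spermatids, the highest being HFD replicate 2.

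The part of free RNA in the level of both copies in spermatogonia was not tested. Macrophages had 60.9 ± 19.7 CPM of Rpl10l and 757 ± 270 of Rpl39l, above the means of spermatogonia, 50.5 and 533, with overlapping ranges. A UMI of Rpl10l was found in 41.0% of spermatogonia at a median of 11695.5 UMIs per barcode and in 21.0% of macrophages at a median of 3549. Macrophages also held 6090 ± 2385 CPM of Prm1, the protamine of elongating spermatids, against 2141 ± 608 in spermatogonia, and barcodes under 5000 UMIs outside the gates held 13446 of Prm1, 102 of Rpl10l and 1257 of Rpl39l. The lowest pachytene library of Rpl10l, 112 CPM, is above the highest macrophage library, 89.9 CPM. It is below the highest library of those ungated barcodes, 128 CPM. For Rpl39l the pachytene and macrophage libraries overlap, from 942 CPM in pachytene spermatocytes and up to 1091 in macrophages.

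Read as a share of the pair, Rpl10l made up 13.7% ± 3.97 of the UMIs of Rpl10 and Rpl10l in spermatogonia, 39.9% ± 9.74 in early meiotic prophase, 96.6% ± 1.47 in pachytene spermatocytes and 89.0% ± 2.93 in elongating spermatids (n = 6). Its share was higher in 6 of 6 libraries at the first step (26.2 percentage points) and at the second (56.8), each with an exact sign-flip p of 0.03125, which becomes 0.0625 over the 12 steps tested for Rpl10l and Rpl39l, so that no step passed 0.05 after adjustment. The Rpl39l share was 55.8% ± 8.46 in spermatogonia, 62.7% ± 9.55 in early prophase and 99.7% ± 0.277 in pachytene spermatocytes. The first of these steps, 6.89 points, had an exact p of 0.21875 and the second, 37.0 points, 0.03125; with possible doublets removed the first measured -11.6 points. In macrophages Rpl10l made up 4.94% ± 3.17 of its pair and Rpl39l 29.8% ± 13.4. Ungated barcodes under 5000 UMIs held 15.9 CPM of Rpl10 and 18.7 of Rpl39, below their copies.

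Other members come in pairs of similar genes. Rpl36al, an autosomal relative of Rpl36a, stayed within 416 to 585 CPM on average from spermatogonia to later round spermatids while Rpl36a went down, and its share of the pair went from 50.2% ± 3.19 to 66.1% ± 7.30 and then 99.6% ± 0.416 in pachytene spermatocytes. The pair Rpl22 and Rpl22l1 is autosomal on both sides, at chr4:152325742-152334071 and chr3:28805436-28807424, both on the plus strand. Rpl22, an RNA-binding protein of the large subunit, went from 1487 ± 154 CPM in spermatogonia to 327 ± 51.1 in pachytene and 127 ± 17.2 in late spermatocytes. Rpl22l1 had 414 ± 32.8, 381 ± 46.7 and 582 ± 50.3 CPM in the same classes. The Rpl22l1 share was 21.8% ± 1.77 in spermatogonia, 54.0% ± 4.07 in pachytene spermatocytes, 82.0% ± 2.06 in late spermatocytes and 57.4% ± 7.57 in elongating spermatids. On edgeR's scale Rpl22 fell at both of the steps around the pachytene stage, by 1.21 and 1.22 (adjusted p = 4.089e-13 and 6.47e-13), and Rpl22l1 rose into late spermatocytes by 0.75 ± 0.11 (1.384e-07).

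Rps27l, a relative of Rps27 that is known as a target of p53, made up 34.0% ± 3.41 of its pair in spermatogonia, 40.0% ± 5.65 in early meiotic prophase and 11.9% ± 4.73 in elongating spermatids. Rpl7l1 made up 11.7% ± 0.584 of the UMIs of Rpl7 and Rpl7l1 in spermatogonia and 1.60% ± 1.15 in elongating spermatids. Rpl3l, known for its expression in heart and skeletal muscle, reached 0.698% ± 0.149 of the UMIs of Rpl3 and Rpl3l in spermatogonia and 0.0929% ± 0.0376 in pachytene spermatocytes.

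**Figure D3:**
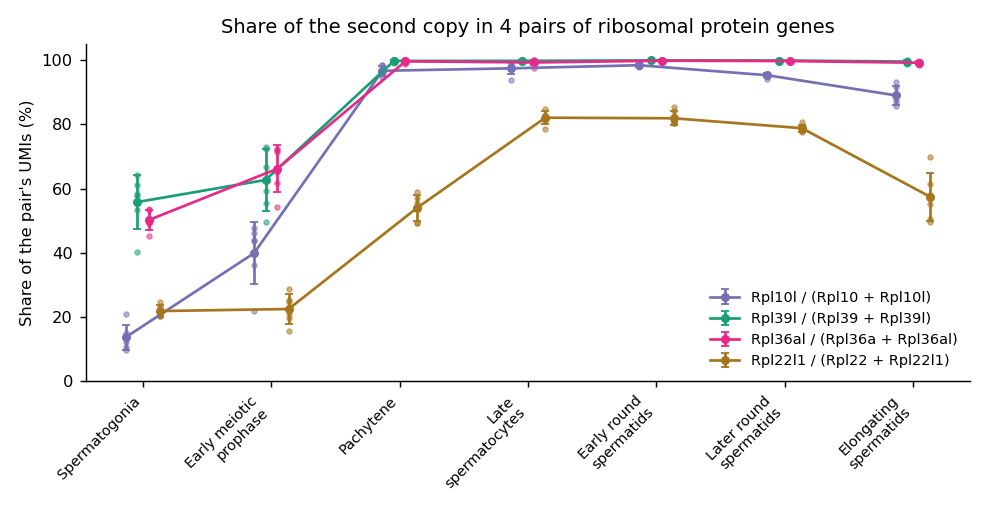
Share of the second copy in the UMIs of 4 pairs of ribosomal protein genes (vertical axis, percent) over the germ cell stages. Large points and bars are the mean and SD of 6 libraries, small points the libraries. Rpl10l, Rpl39l and Rpl36al make up 93.8% or more in every library from the pachytene stage to later round spermatids, while the Rpl22l1 share lies at 49.1% to 58.9% in pachytene and 78.6% to 84.8% in late spermatocytes.

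The remaining members were counted between consecutive stages by edgeR. The direction of a call at a late stage depends on the scaling, since elongating spermatids give much of their RNA to a few genes. Calls were therefore counted only where edgeR with TMM scaling, DESeq2 and edgeR scaled to the total count alone each called the gene at an adjusted p under 0.05 in the same direction. From spermatogonia to early meiotic prophase 63 of the 86 members fell and 4 rose, against 24.5% of all 15927 genes lower and 18.0% higher. Into the pachytene stage 27 fell and 6 rose (29.3% and 23.6% of all genes). Into late spermatocytes 35 fell and 4 rose (29.1% and 27.1%). Into early round spermatids 9 fell and 2 rose (21.7% and 23.1%). Into later round spermatids 5 fell and 1 rose (18.4% and 23.1%). Into elongating spermatids 1 fell and 13 rose (23.4% and 15.9%). Between the ends of the series, elongating spermatids against spermatogonia, 43 fell and 1 rose, against 41.6% and 28.0% of all genes; the one that rose was Rpl39l.

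Set against the median of all genes, the members' median log2 change was -0.57 at the first step, 0.03 at the second and -0.25 into late spermatocytes. It was 0.16 and 0.07 into early and later round spermatids and 0.45 at the last step. With DESeq2 these medians were -0.58, 0.05, -0.24, 0.12, 0.10 and 0.48, and with total counts -0.56, 0.00, -0.25, 0.16, 0.06 and 0.45. A shift that a scaling gives to all genes alike drops out of this difference, so their closeness is no separate check. With possible doublets removed the medians were -0.84 at the first step, -0.34 at the second, 0.13 into late spermatocytes and 0.69 at the last. Into late spermatocytes TMM then called 11 of 85 members higher and 12 lower, against 3062 and 3744 of 13135 genes. With all gated barcodes it called 6 of 86 higher and 44 lower, against 5056 and 5233 of 15927 genes. The members thus fell furthest below the other genes at the entry into meiosis and lay above them at the last step. TMM scaling alone called 60 members higher and 9 lower at that last step (32.9% and 33.5% of all genes). Total counts called 13 of the 86 members higher and 39 lower there, against 2539 and 8555 of all 15927 genes.

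**Figure D4:**
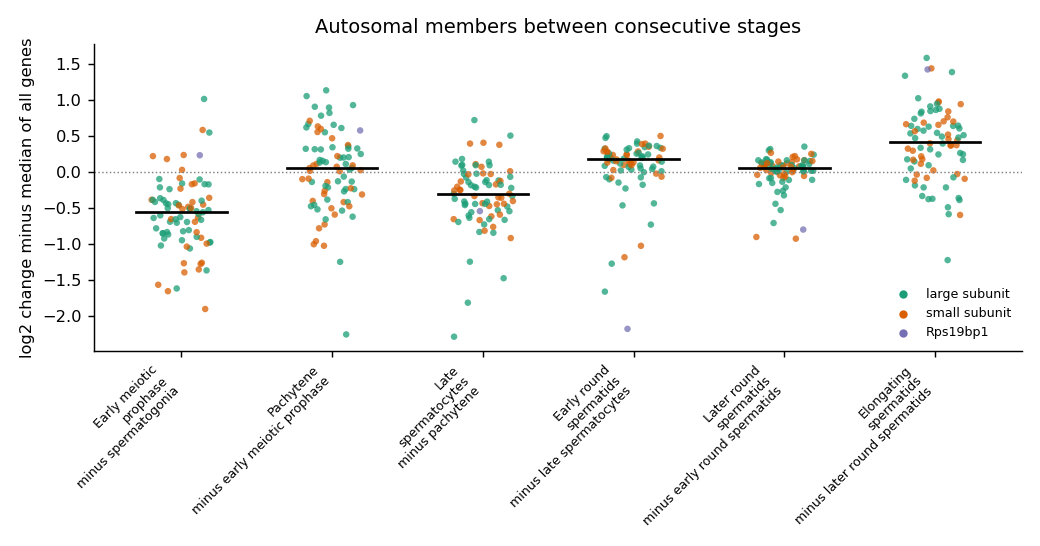
Change of the 82 autosomal members at each step between consecutive germ cell stages (vertical axis, edgeR log2 change minus the median of all genes tested at that step). Each point is 1 gene, green for the large subunit, orange for the small subunit and purple for Rps19bp1, and black lines are medians over the 82 genes. Most points lie below 0 into early prophase and into late spermatocytes and above 0 at the last, where Rpl10l is the lowest.

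At the entry into meiosis Rps2, a protein of the small subunit at the entry of the mRNA channel, had 2071 ± 213 CPM in spermatogonia and 568 ± 43.0 in early meiotic prophase, a log2 change of -1.80 ± 0.09 (adjusted p = 4.675e-19). No library overlaps between these classes. The 4 that rose were Rpl10l, Rpl39l, Rps27 (1153 ± 153 to 1399 ± 291 CPM, 0.33 ± 0.08) and Rps27l (591 ± 62.4 to 914 ± 124 CPM, 0.70 ± 0.14). Into the pachytene stage the 6 that rose were Rpl10l, Rpl39l, Rpl36al (424 to 554 CPM, 0.95 ± 0.10), Rpl24 (801 ± 126 to 1060 ± 150 CPM, 0.97 ± 0.09), Rpl13 and Rpl29.

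From pachytene spermatocytes on, a group of members went down further than the rest. Rpl14 had 528 ± 78.9 CPM in pachytene spermatocytes, 139 ± 25.1 in late spermatocytes, 39.1 ± 9.24 in early and 24.3 ± 10.5 in later round spermatids. Rpl10a had 446 ± 46.4, 85.3 ± 15.7, 30.7 ± 4.60 and 24.9 ± 9.67 CPM. On edgeR's scale both fell into late spermatocytes (-1.79 ± 0.25 and -2.26 ± 0.24) and again into early round spermatids (-1.85 ± 0.26 and -1.46 ± 0.24), in 6 of 6 libraries at each step. Rps27a, which carries a ubiquitin that is cut off its ribosomal protein, went from 1592 ± 175 CPM in pachytene spermatocytes to 841 ± 126, 325 ± 32.7 and 147 ± 49.5, and Rps3, a protein of the mRNA entry site, from 456 ± 79.1 to 264 ± 28.4, 116 ± 21.5 and 51.1 ± 10.5. Both fell at the step between round spermatids (-0.88 ± 0.23, adjusted p = 0.001491, and -0.86 ± 0.24, 0.002657). Rps19bp1 had 86.3 ± 9.55 CPM in pachytene spermatocytes and 11.0 ± 2.97 in early round spermatids and fell by 2.37 on the log2 scale from late spermatocytes (SE 0.30, adjusted p = 1.123e-08).

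A few members went up where these went down. Rps26 went from 514 ± 97.8 CPM in pachytene spermatocytes to 621 ± 120 in late spermatocytes and 777 ± 128 in early round spermatids and rose at both steps (0.41 ± 0.08 and 0.32 ± 0.08). Rps29 rose into late spermatocytes (1142 ± 315 to 1403 ± 360 CPM, 0.44 ± 0.09), and Rpl35 into early round spermatids (259 ± 69.3 to 319 ± 84.0 CPM, 0.29 ± 0.10). Rpl30 measured 0.24 ± 0.09 at the step into early round spermatids and was not called with total counts. Rpl10 was the one member called higher from early to later round spermatids, by 1.32 ± 0.30 (adjusted p = 0.0002806), between levels of 2.97 ± 1.02 and 6.06 ± 1.17 CPM, far below its 324 CPM in spermatogonia.

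Into elongating spermatids the largest rises among the members that were higher in 6 of 6 libraries were those of Rpl14 (1.64 ± 0.25), Rps20 (1.49 ± 0.10) and Rpl41 (1.39 ± 0.10). The X-linked Rps4x (2.01 ± 0.51), Rpl36a (1.73 ± 0.48) and Rpl39 (1.67 ± 0.47) measured more, in 4, 5 and 4 of 6 libraries, between means of 4.15 CPM or less. Rps20 had 1661 ± 123 CPM in later round and 2766 ± 346 in elongating spermatids, above its 2498 ± 137 in spermatogonia, and Rpl41, one of the smallest proteins known, had 1285 ± 250 and 1979 ± 370 CPM. Among the members lower in 6 of 6 libraries, Rpl22l1 (-0.54 ± 0.11) and Rpl30 (-0.34 ± 0.09) followed Rpl10l at this step under TMM scaling, and neither was called lower by DESeq2. Rps27l (-0.55 ± 0.14) and Rpl27 (-0.44 ± 0.13) were lower in 5 of 6 libraries. For Rpl14 the level was low in both classes, 24.3 ± 10.5 and 50.5 ± 48.7 CPM, and its highest elongating library was HFD replicate 2 at 147 CPM; without that library the change was 1.47.

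Over the 7 germ cell classes 76 of the 86 members had their highest mean in spermatogonia, 6 in early meiotic prophase, 1 in pachytene spermatocytes and 3 in early round spermatids. These 3 were Rpl10l, Rpl39l and Rpl22l1. Their correlations with the summed CPM of all members over the 7 class means were -0.18, -0.57 and -0.13, against a median of 0.94 over the members and 62 members above 0.9. The 7 points share their libraries, and the sum contains each member, so these values only describe the profiles. Spermatogonia were 4.06-fold above elongating spermatids in the median member; 17 members were 10-fold or more above, the 4 X-linked genes among them, with 38.6-fold for Rpl14, 26.9-fold for Rpl10a, 26.1-fold for Rps3 and 24.4-fold for Rpl4. At the other end were Rpl39l (0.769-fold), Rps20 (0.903-fold), Rpl36 (1.16-fold) and Rpl41 (1.21-fold). The 5 members with the highest mean over the germ cell classes were Rps24 (4210 ± 317 CPM in spermatogonia and 1716 ± 376 in elongating spermatids), Rpl13 (4029 ± 513 and 1374 ± 460), Rps20, Rpl32 (3957 ± 463 and 1327 ± 301) and Rpl41, and 70 members had at least 100 CPM in every germ cell class.

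The stalk proteins, which recruit the elongation factors, did not move together. Rplp0 had 2506 ± 545 CPM in spermatogonia, 2075 ± 330 in pachytene spermatocytes and 1042 ± 116 in elongating spermatids. Rplp1 had 2998 ± 611, 1046 ± 218 and 617 ± 119, and Rplp2 had 2548 ± 632, 536 ± 104 and 319 ± 78.3. Into early meiotic prophase Rplp2 fell by 1.26 on the log2 scale (SE 0.09, adjusted p = 3.782e-15), Rplp1 by 0.30 (0.006117) and Rplp0 by 0.28 (0.01182); the difference between them was not tested.

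Macrophages, with a share of ribosomal protein UMIs like that of spermatogonia, divided it among the members in another way. The median member had 0.996 times the CPM of spermatogonia, with 43 members lower. Rps4x was 22.6-fold higher, 2427 ± 755 against 108 ± 39.3 CPM, with no overlap between libraries (1512 is the lowest in macrophages and 175 the highest in spermatogonia). Rpl10 and Rpl39 were 4.37-fold and 4.34-fold higher. Rpl36a, also X-linked, had 617 ± 223 CPM against 583 ± 71.5. In the other direction Rps2 had 0.402 times, Rps27l 0.413 times and Rpl4 0.429 times the level of spermatogonia. No test was run between these classes.

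Genes that build or serve the ribosome were taken from lists, chosen like the members with earlier results of these data known, and compared between spermatogonia and elongating spermatids. Of 37 genes for ribosome assembly and RNA polymerase I, 31 fell and 2 rose under all 3 scalings, against 41.6% and 28.0% of all genes, with a median log2 change (TMM) of -2.56 relative to all genes. Polr1b, a subunit of RNA polymerase I, went from 24.1 ± 3.70 to 0.0278 ± 0.0681 CPM, and Dkc1, an X-linked gene of the enzyme that modifies ribosomal RNA, from 92.5 ± 12.8 to 0.282 ± 0.249. The 2 that rose were Sbds (2.38 ± 0.13), which readies the large subunit, and Rrp1 (2.29 ± 0.11). Of 13 genes for the control of ribosomal protein mRNAs 10 fell and 0 rose (median -3.39 relative to all genes), and Mycn, a transcription factor of growing cells, had 18.4 ± 3.73 and 0.0285 ± 0.0450 CPM.

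Factors that act on finished ribosomes were counted in the same way, beside the 41.6% of all genes that fell and the 28.0% that rose. Of 37 initiation factors and poly(A) binding proteins 14 fell and 3 rose under the 3 scalings. Eif4e, which binds the mRNA cap, went from 193 ± 13.3 to 908 ± 243 CPM, Eif4h from 127 ± 17.0 to 786 ± 231, and Pabpc4 from 49.4 ± 5.73 to 0.141 ± 0.154. Of 9 elongation factors 3 fell and 2 rose; Eef1g went from 461 ± 51.7 to 932 ± 201 CPM and Eef1d from 512 ± 79.4 to 908 ± 220. Of the ribosomal genes that the symbol rule leaves out, Rack1 fell (902 ± 140 to 39.5 ± 40.4 CPM), while Fau was not called in the same direction under all scalings.

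The sequence at the start of the genes was read in RefSeq promoters of GRCm38, of which 78 belong to 66 of the members. Ribosomal protein mRNAs are known to open with a run of pyrimidines (the letters c and t), which ties their translation to growth signals. Within 20 bases either side of the annotated start, on the strand of the gene, a pyrimidine run of 8 or more was found in 39.7% of the 78 promoters, against 16.0% of all 32851 promoters. For the pair with the most UMIs the 40 bases around the RefSeq start are printed, with each pyrimidine run of the greatest length in capitals. Rpl39 is shown at chrX:37085203-37085242 on the minus strand and Rpl39l at chr16:10170208-10170247 on the plus strand. The Rpl39 window lies inside the GENCODE gene given above, which starts at chrX:37085402 on the minus strand. Whether the Rpl39 mRNA opens within this window was not tested.
Rpl39: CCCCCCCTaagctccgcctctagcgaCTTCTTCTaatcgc
Rpl39l: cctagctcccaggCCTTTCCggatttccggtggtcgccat
The Rpl39 window holds 2 runs of 8 pyrimidines, and the longest run of the Rpl39l window is 7. A second score, for the letters of the known pyrimidine opening, was met in 44.9% of the member promoters and 17.2% of all promoters. On the other strand these values were 21.8% and 17.3%. Between the windows of this pair the second score went the other way. It was met in the Rpl39l window and not in the Rpl39 window.

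The comparison of diets asked whether 2 weeks of HFD changed these genes in the testis or in any cell class. No member passed an adjusted p of 0.05 in edgeR in the whole testis or in the 8 classes with at least 20 barcodes in every library, and neither did any other gene, 0.0% of those tested in each. At an unadjusted p under 0.05 there were 471 of 20727 genes and 0 of 86 members in the whole testis. In early round spermatids 16 of the 81 members tested reached that level, all lower in HFD, 19.8% against 6.59% of all genes. That count was 1 member without HFD replicate 3, 2 without LFD replicate 1, 8 without LFD replicate 2 and 43 without HFD replicate 1. In early meiotic prophase 5 members did so (5.88% against 3.47% of genes), in pachytene spermatocytes 2 (2.38% against 6.85%), in later round spermatids 4 (4.76% against 4.79%) and in elongating spermatids 6 (7.14% against 4.32%). None did so in spermatogonia, late spermatocytes and macrophages, against 1.86%, 1.94% and 0.768% of genes. DESeq2 called 69 genes and 0 members in pachytene spermatocytes. There the replicate numbers behave as pairs, and a fit with the number as a block called 124 genes and 0 members.

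In the whole testis, a change in the mix of cells and a change per cell cannot be told apart. The share of UMIs from the members was 5.82% ± 0.534 for the HFD label and 6.00% ± 0.600 for the LFD label there (n = 3 each, exact permutation p = 0.6, adjusted p = 0.7 over 9 comparisons). With 3 against 3 the smallest p is 0.1. In spermatogonia it was 14.6% ± 2.23 against 15.5% ± 1.48, and in macrophages 14.1% ± 3.72 against 17.0% ± 4.06. None of the 9 differences had an exact p under 0.3. Replicate 1 of both diets lies close together in the whole testis, spermatogonia and late spermatocytes: within it the HFD minus LFD differences were 0.146, 0.258 and 0.00067 points, against -0.337, -1.52 and -0.553 within the other 4 libraries.

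Single members moved little between diets beside the spread of the libraries. The median log2 change over the members was 0.03 in the whole testis, -0.10 in spermatogonia, -0.14 in early meiotic prophase, -0.02 in pachytene and -0.08 in late spermatocytes, -0.15 in early and -0.09 in later round spermatids, 0.13 in elongating spermatids and -0.31 in macrophages. The member with the smallest p in any class was Rps3 in early round spermatids, at 98.5 ± 15.4 CPM in HFD and 133 ± 4.95 in LFD, a log2 change of -0.46 ± 0.14 (edgeR adjusted p = 0.7162). Its HFD libraries ran from 87.4 to 116 CPM and its LFD libraries from 127 to 137, so the groups do not overlap. In that class 6 of the 81 members tested did not overlap, against 11.5% of all genes in either direction. All 6 were lower in HFD (Rpl7a, Rps3, Rplp2, Rps26, Rps19bp1 and Rpl36), and 5.05% of all genes were without overlap and lower. In the whole testis the 3 members with the smallest p were Rpl7 (0.32 ± 0.15, unadjusted p = 0.0512 in edgeR), Rps27a (0.40) and Rpl5 (0.26). In spermatogonia and in macrophages it was Rpl36 (-0.34 ± 0.21 and -0.68 ± 0.45) and in late spermatocytes Rpsa, the laminin receptor homologue of the small subunit (-0.31 ± 0.15). Without HFD replicate 1, 22 members were called lower in early round and 12 in later round spermatids, among 242 and 295 genes called in all. The fits with all 6 libraries tested 81 members among 9923 genes in early round and 84 among 14589 in later round spermatids.

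Of the copies, Rpl22l1 in pachytene spermatocytes had 403 to 443 CPM in HFD and 319 to 360 in LFD, a log2 change of 0.33 ± 0.12 (edgeR adjusted p = 0.6241), and 2 members did not overlap there against 11.5% of all genes. The X-linked genes Rpl39 and Rpl36a measured -1.50 ± 0.55 and -1.55 ± 0.73 in this class, at 1.72 and 1.09 CPM in HFD and 4.91 and 3.31 in LFD, and both were called lower without LFD replicate 1. The LFD values were 1.51, 9.59 and 3.62 CPM of Rpl39 and 0.379, 6.95 and 2.59 of Rpl36a in replicates 1, 2 and 3, the highest being LFD replicate 2, and without that library 0 members were called. In early meiotic prophase Rpl10l had 113 to 136 CPM in HFD and 70.3 to 97.9 in LFD (0.48 ± 0.20), and 7 members did not overlap, against 9.16% of genes. Rps26 was lower in all 3 HFD libraries than in any LFD library in the whole testis (421 to 640 against 667 to 697 CPM), as well as in early meiotic prophase and in early and later round spermatids, and it reached an adjusted p of 0.986 in edgeR in the whole testis. Late spermatocytes and later round spermatids had 5 and 4 members without overlap (8.08% and 8.81% of genes), elongating spermatids 2 (5.46%), spermatogonia and the whole testis 1 each (7.30% and 6.68%), and macrophages 0 (3.97%).

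The precision of these tests differed between classes. The median standard error of a member's log2 change lay between 0.12 and 0.20 in the whole testis and in the germ cell classes up to later round spermatids. It was 0.34 in elongating spermatids and 0.46 in macrophages, where a difference between diets would have to be larger to be called. Rpl10a in elongating spermatids is an example, at a log2 change of 1.30 that rests on HFD replicate 2, where it had 147 CPM against 16.4 in the lowest library.

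**Figure D5:**
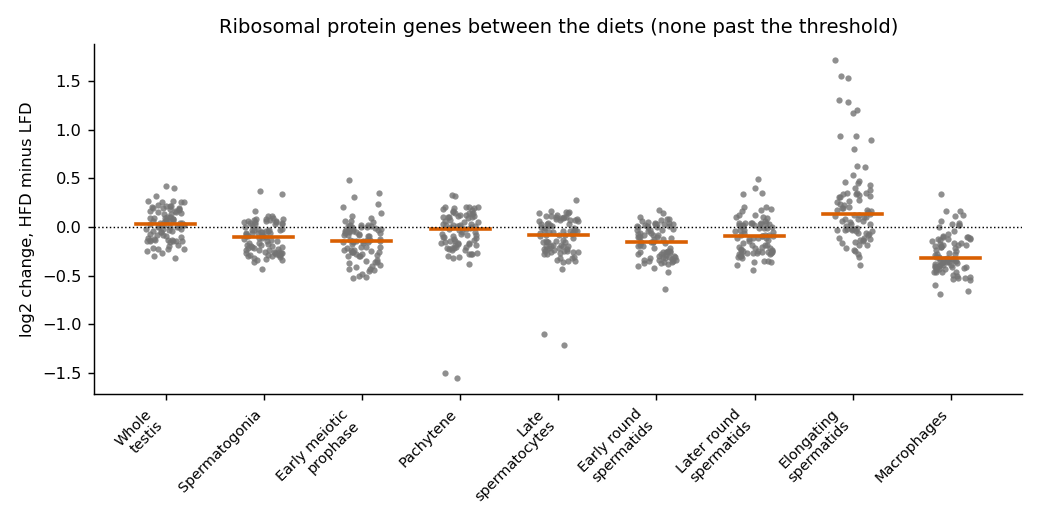
Change of each member between diets, HFD minus LFD (vertical axis, edgeR log2 change), in the whole testis and in 8 cell classes. Each grey point is 1 gene and orange lines are medians over the members. No point passes an adjusted p of 0.05; the medians lie between -0.31 in macrophages and 0.13 in elongating spermatids, and the low points in pachytene and late spermatocytes are X-linked members at few UMIs.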

How the data were processed

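Single-cell RNA was counted by the authors with Cell Ranger 6.0.1 against mm10, per the labels and the study's methods; the deposited matrices hold UMI counts per gene and barcode, filtered to cells and not normalized. The labels and the methods name different kit versions. No barcode had under 200 genes. Doublets were not called, and barcodes passing a second gate were removed only as an alternative.

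The members and gene lists were chosen with earlier results of these data known. Each barcode was scored by the mean standardized log level of marker genes and placed in a class at a score of at least 0.4, a lead of 0.1, 5 marker UMIs, 3 marker genes and 5000 UMIs (2000 for somatic cells); the markers were listed first, and this rule, with 2 early-round markers dropped, was set after the data were seen. UMIs were summed per class and library and tested with edgeR 4.0.16 (quasi-likelihood, TMM, filterByExpr), with DESeq2 1.42.0 and total-count scaling as alternatives. Shares were compared by exact sign-flip tests over 6 libraries and exact permutation tests of 3 against 3, two-sided. Benjamini-Hochberg correction ran over all features tested. Intervals between libraries are SDs; CPM is computed on the class sum.

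Genes named are the paralog pairs, stalk and X-linked genes, Rps19bp1, the 5 highest members, up to 3 that rose and 3 that fell most per step in every library, those with the smallest p per diet comparison, and up to 2 that rose and 2 that fell per other list; further names were given after their values were seen. Rps4l and the marker H1f6 were not analysed here. The fits were tested on simulated data. Alternatives were scaling, the low-count filter, a stricter gate, removal of possible doublets, a mean over barcodes, each library left out, a replicate block and replicate 1 as a term. Replicate numbers were checked by correlating deviations from the group means: every same-numbered pair exceeded 0.1 only in pachytene spermatocytes (0.21, 0.19 and 0.17) and elongating spermatids (0.45, 0.53 and 0.15). Sequences are from GENCODE transcripts and RefSeq promoters of GRCm38.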

Additional observations from a re-analysis of the deposited data

Results flagged for a closer look

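Of 40 sets of 6 library values tested for a library far from the others, 4 had one, and chance flags about 1 in 20. In elongating spermatids the share of ribosomal protein UMIs was 6.34% in HFD replicate 2 and 3.57% to 4.18% in the other libraries. In late spermatocytes LFD replicate 2 had the lowest share of the second copy in 3 pairs, 93.8% for Rpl10l against 97.3% to 99.0%, 99.3% for Rpl39l against 99.7% to 99.97%, and 97.6% for Rpl36al against 99.1% to 99.9%. In that library the spermatogonia markers summed to 35 CPM in late spermatocytes, against 8 to 22 in the others; their part in the result was not tested.

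Outside the members, 3 symbols that hold -ps had UMIs above the 3 that a count of 0 allows in each of the 6 libraries: Rpl9-ps6 with 2126 UMIs, Rpl10-ps3 with 108 and Rpl36a-ps1 with 77. Reads that match both a gene and a copy of it can be given to either, so these counts are uncertain, and they were not added to the members. Rpl9-ps6 measured 4.03 to 6.98 CPM in the libraries.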

How the results depend on the processing

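Removal of every barcode that passed a second gate or had high UMIs left 56.0% of gated barcodes. The early round class could then give no value. The steps of the ribosomal protein share were -5.92 and -4.69 points (sign-flip test, adjusted p = 0.0625) and 0.0948 into late spermatocytes. The Rpl10l steps were 16.4, 58.3, 5.40 and -5.50, and the Rpl39l steps -11.6, 41.1 and -0.369 (adjusted p = 0.03571 over fewer steps). From pachytene to late spermatocytes 23 of 85 members were called, among 6806 of 13135 genes. Without barcodes in gates of distant classes, an alternative added after seeing the data like total-count scaling, the step between late spermatocytes and early round spermatids was 0.00098 points. Without protamines and transition proteins in the denominator the last step was 0.218 points. As a mean over barcodes the step into late spermatocytes was -0.882 points (sign-flip test, adjusted p = 0.1875) and that into early round spermatids 0.182 (adjusted p = 0.04688). With 1 library left out the 4 steps ranged from -5.03 to -4.63, -3.23 to -2.68, -1.62 to -1.34 and -0.832 to -0.693 points, and 5 libraries cannot reach an exact p under 0.0625.

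By TMM alone 19 members were called into early round spermatids, 4 higher and 15 lower, among 8144 of 15927 genes. With DESeq2 there were 33, 20 higher and 13 lower, among 8056 genes. Into later round spermatids TMM called 17, 12 higher and 5 lower, among 7593 genes. Without the filter there were 31, 29 higher and 2 lower, among 7985 of 27546 genes. With total counts there were 28, 1 higher and 27 lower, among 8905 of 15927 genes. Leaving out 1 library gave 12 to 18 and 10 to 21 members at these steps by TMM. Between diets, pachytene spermatocytes had 2 members without the filter, and leaving out 1 library gave 0 to 2 there. It gave 0 to 22 in early and 0 to 12 in later round spermatids. The highest counts in round spermatids came without HFD replicate 1 and are given above beside the genes called in all. Diet differences of the share turned to 0.40 (possible doublets removed) and 0.193 points (mean over barcodes) in pachytene spermatocytes, and within replicate 1 to 0.146 in the whole testis, 0.258 in spermatogonia, 0.00067 in late spermatocytes and -0.0653 in elongating spermatids. With 1 library left out they ranged from -0.493 to 0.128 in the whole testis, -0.822 to 0.10 in pachytene, -0.464 to 0.0202 in later round and -0.0896 to 1.23 in elongating spermatids. Of the single genes, Fau (-0.63), Larp1 (-0.64) and Rptor (-1.01) reversed from spermatogonia to elongating spermatids with total counts, and Rpl30 (0.0854) at the last step with DESeq2. With the replicate number as a block 0 members were called in any diet comparison, while 24 genes were called in the whole testis, 2 in early meiotic prophase and 124 in pachytene spermatocytes; every library correlated best with its own number in 4 of the 9 comparisons. The block moved no share difference past the threshold, and the stricter gate left too few early round barcodes in 1 library for a diet value. The causes of these shifts were not tested.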

Other observations

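The 4 X-linked members held different ranks in the somatic classes. In the Leydig, peritubular and stromal class Rps4x had 1786 ± 379 CPM, Rpl39 1426 ± 441, Rpl10 1365 ± 317 and Rpl36a 692 ± 210 (n = 6). In spermatogonia the order was Rpl36a, Rpl39, Rpl10 and Rps4x, with Rps4x at 108 ± 39.3 CPM and overlapping ranges of Rpl36a and Rpl39. In Sertoli cells the 4 genes had 118 ± 44.0 (Rps4x), 213 ± 73.8 (Rpl39), 94.4 ± 36.2 (Rpl10) and 53.7 ± 17.3 CPM (Rpl36a), and these cells held 12547 ± 4082 CPM of Prm1. Which part of these Sertoli values comes from the RNA of germ cells was not tested.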
